A study of Mus musculus with 6 samples.

Results

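Interferon response genes were followed in cells cultured from exorbital lacrimal glands of mice and measured on 6 Affymetrix Mouse Gene 2.0 ST arrays. The series names them myoepithelial cells, the contractile basal cells that surround the secretory acini. The genes are a list of 37 interferon-stimulated genes and interferon regulators, without chemokines, taken by gene symbol, with earlier results of these data known. A gene counted as measured where a probe set carried exactly its 1 symbol, and of several such probe sets the brightest on average was used. This left 33 of the 37 among 22180 named genes. Irf5, Oas1a and Gbp2 share their probe sets with a neighbour or a close relative, and for Ifi44 no probe set was named in the annotation used, so these were not analysed here. The null group was cells from female TSP1 null mice (3 arrays), which carry a disrupted Thbs1, the gene of the matrix glycoprotein thrombospondin-1, and serve the series as a model of dry eye disease. The control group was cells from female wild-type C57BL/6J mice (3 arrays). The strain background of the null mice and the ages of the mice are not given in the labels. Cells of both groups were grown in medium with serum for about 2 to 3 weeks without treatment, and no interferon was added. The labels speak of biological replicates but do not say whether each had its own animal or culture, so p-values measure only the spread between these arrays.

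Interferons are secreted proteins by which cells warn each other of infection. Type I interferons bind a receptor made of Ifnar1 and Ifnar2, whose kinases Jak1 and Tyk2 activate Stat2. With Irf9 it enters a complex that binds interferon-stimulated response elements (ISRE) near its target genes, while interferon gamma acts mainly on gamma-activated sites (GAS). Cells also keep a low tonic level of many target genes without infection. In dry eye disease, interferon signalling is best known from the immune cells and epithelia of the ocular surface and lacrimal gland.

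The promoters of some members hold a match to the element through which this complex acts, and 4 of these promoters are printed here. They belong to the members with the smallest p in the comparison below among those that hold an ISRE core, in that order, and they cover genes with signals in both directions. The ISRE core was searched as GAAA, any 2 bases, GAAA on both strands, in RefSeq windows of 300 bases (250 before and 50 after the gene start, build GRCm38.p6). Windows were held for 28 of the 37 listed genes, and 15 of these genes had a core (53.6%), against 1079 of 27025 genes with a window (3.99%). Of single windows, 3.44% had one. GAS, searched as TTC, any 3 bases, GAA, was found for 9 of the 28 (32.1%) and for 9.55% of all genes. In Bst2 a match of one motif overlapped a match of the other. Capitals mark the ISRE core in the sequences, each given 5′ to 3′ on the strand of its gene. In Ifi207 (chr1:173741760-173742059, minus strand) it starts 41 bases before the gene start, and in Rsad2 (chr12:26456403-26456702, minus strand) 120 bases before it. Isg15 (chr4:156200769-156201068, minus strand) holds 3 overlapping cores that begin from 78 to 66 bases before the start. Stat2 (chr10:128270248-128270547, plus strand) has its core 222 bases before the start. In Rsad2 and Stat2 the core lies on the opposite strand, so it reads TTTC, any 2 bases, TTTC.
Ifi207: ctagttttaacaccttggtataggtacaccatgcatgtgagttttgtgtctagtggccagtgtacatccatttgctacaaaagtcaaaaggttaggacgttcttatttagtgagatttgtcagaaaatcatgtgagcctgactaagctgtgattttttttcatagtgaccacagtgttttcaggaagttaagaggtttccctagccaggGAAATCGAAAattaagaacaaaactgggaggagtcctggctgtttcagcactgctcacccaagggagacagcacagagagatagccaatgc
Rsad2: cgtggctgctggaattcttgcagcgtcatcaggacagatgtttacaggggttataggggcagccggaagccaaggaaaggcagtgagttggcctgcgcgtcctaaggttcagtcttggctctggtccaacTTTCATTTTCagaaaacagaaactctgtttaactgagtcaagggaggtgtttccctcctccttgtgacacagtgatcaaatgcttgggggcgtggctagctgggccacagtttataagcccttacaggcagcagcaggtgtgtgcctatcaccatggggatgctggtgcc
Isg15: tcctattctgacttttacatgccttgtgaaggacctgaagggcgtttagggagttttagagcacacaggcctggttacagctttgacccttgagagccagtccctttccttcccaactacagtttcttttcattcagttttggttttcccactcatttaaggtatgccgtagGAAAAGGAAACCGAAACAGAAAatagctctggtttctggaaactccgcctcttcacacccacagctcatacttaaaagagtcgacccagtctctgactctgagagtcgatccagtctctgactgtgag
Stat2: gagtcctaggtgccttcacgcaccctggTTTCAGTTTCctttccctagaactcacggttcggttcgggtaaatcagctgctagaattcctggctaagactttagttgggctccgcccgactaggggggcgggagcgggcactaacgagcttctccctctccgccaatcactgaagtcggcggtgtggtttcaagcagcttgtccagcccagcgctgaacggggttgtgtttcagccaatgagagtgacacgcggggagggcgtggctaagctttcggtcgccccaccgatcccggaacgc
A match describes letters in a window and not a bound site.

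No interferon response gene passed the test between genotypes. With limma and Benjamini-Hochberg adjustment over all genes, 0 of the 33 members had an adjusted p under 0.05, and 0% of all 22180 genes did. The smallest adjusted p among members was 0.25, for Ifi207. On the log2 scale 26 of the 33 differences (null minus wild type) were positive, against 55.1% of all genes, and their median was 0.33, against 0.02 over all genes. The differences ran from -1.60 for Ifi207 to 1.41 for Isg15. At an unadjusted p under 0.05 the members counted 4 with higher signals in the null group, against 6.28% of all genes, and 3 with lower signals, against 4.27%. In 3 members every null array lay above every wild-type array, against 10.1% of all genes, and in 2 members every null array lay below, against 5.75%. In the remaining 28 members the groups overlapped.

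**Figure D1:**
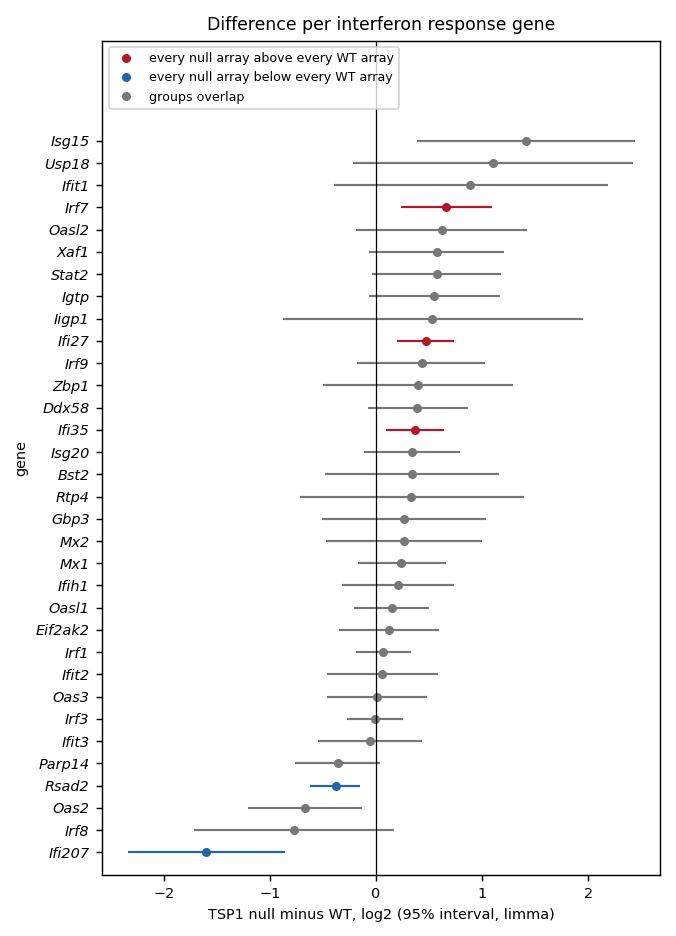
Difference in log2 signal (TSP1 null minus WT, x axis) of the 33 measured interferon response genes (y axis), with 95% intervals from limma and 3 arrays per group; colours mark whether the groups overlap. Most points lie right of 0 with wide intervals, Isg15 is highest at 1.41, and Ifi207 is lowest at -1.60.

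The first wild-type array stood apart within its group. For 24 of the 33 members it was the highest of the 3 wild-type arrays, where it was for 33.6% of all genes. It exceeded both other wild-type arrays by at least 0.5 for 15 members (45.5%), against 3.85% of all genes. In the null group the third array was the highest for 22 members, against 33.0% of all genes. The third null and the first wild-type array were the top pair for 15 members (45.5%) and for 7.58% of all genes, and the second and the third wild-type arrays were the bottom pair for 19 members (57.6%) and for 9.50% of all genes. The median deviation of the members from their means over the 6 arrays was 0.08, 0.04 and 0.37 on the null arrays and 0.26, -0.35 and -0.27 on the wild-type arrays. Over all genes this median stayed between -0.02 and 0.02 on every array. These patterns between arrays were noticed in the data and are given as a description.

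**Figure D2:**
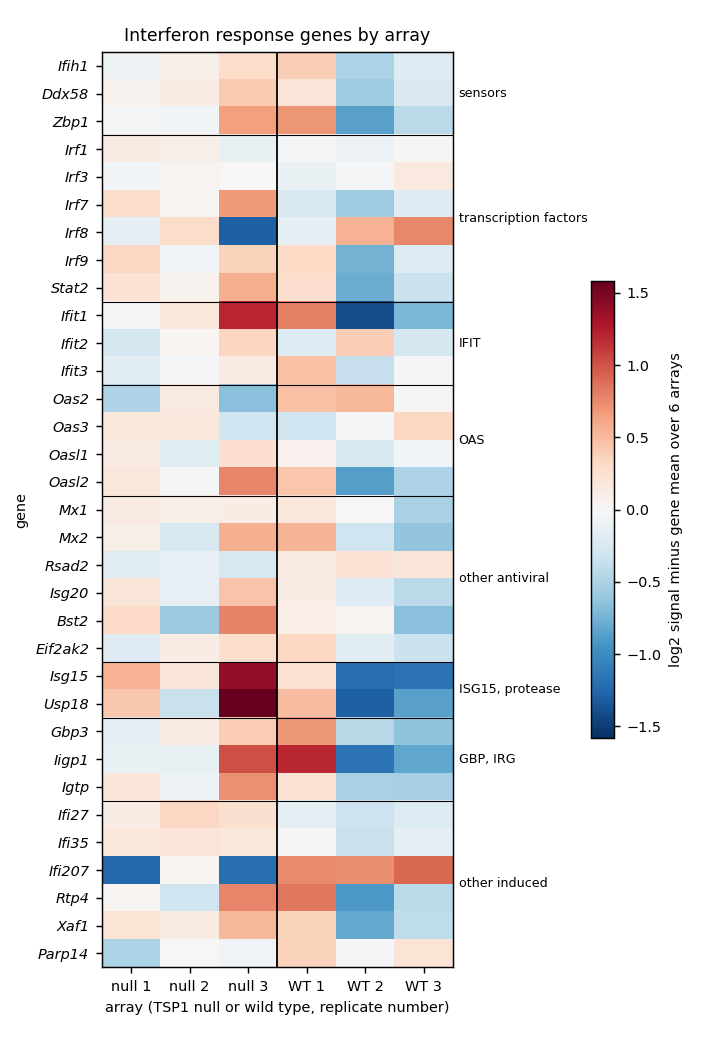
Log2 signal of each measured interferon response gene minus its mean over the 6 arrays (colour), by array (x axis) and gene (y axis, grouped by role); the vertical line divides the TSP1 null from the wild-type arrays. Many rows are red on null 3 and WT 1 and blue on WT 2 and WT 3, while Irf8 and Oas2 are blue on null 3, and Ifi207 is blue on null 1 and null 3.

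The largest positive differences were those of Isg15 and Usp18. Isg15 is a ubiquitin-like protein that is attached to other proteins in interferon-treated cells. Its log2 signals were 8.44, 8.08 and 9.28 on the null arrays and 8.14, 6.69 and 6.73 on the wild-type arrays. Only the first wild-type array reached the null range, passing the second null array. The difference of Isg15 was 1.41 (SE 0.44, n = 3 per group, 2.66-fold, limma adjusted p = 0.368). Without the first wild-type array it was 1.89, and without the third null array 1.07. Usp18 is the protease that removes ISG15 and also damps the type I interferon receptor. Usp18 measured 8.03, 7.25 and 9.19 on the null arrays and 8.10, 6.32 and 6.75 on the wild-type arrays, with a difference of 1.10 (SE 0.57). Leaving out 1 array moved the difference of Usp18 to between 0.59 (the third null array out) and 1.62 (the first wild-type array out). The first wild-type array again stood inside the null range, and the second null array was the lowest of its group for both genes.

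Among the transcription factors of the pathway, Irf7 was the one with separate groups. Irf7 is itself induced by interferon and drives type I interferon genes. It measured 7.53, 7.29 and 7.92 on the null arrays and 7.01, 6.69 and 7.04 on the wild-type arrays. All its null values lay above all its wild-type values, as in 10.1% of all genes. Its difference was 0.66 (SE 0.18, 1.59-fold, limma adjusted p = 0.335). Stat2 and Irf9, parts of the ISRE complex, had differences of 0.57 (SE 0.26) and 0.43 (SE 0.26), with Stat2 at 8.85, 8.67 and 9.19 against 8.88, 7.83 and 8.28. For Stat2 the first wild-type array lay above 2 of the null arrays. Irf3, the factor that starts the response after sensing and is present before it, differed by -0.01 (SE 0.11), with a 95% interval from -0.27 to 0.25. Irf1, an early target of interferon gamma, differed by 0.07 (95% interval -0.19 to 0.33). Irf8, a factor of the myeloid lineage, went the other way. It measured 5.71, 6.14 and 4.56 on the null arrays and 5.71, 6.40 and 6.61 on the wild-type arrays, a difference of -0.77 (SE 0.41), and its lowest signal was on the third null array, where 14 of the 33 members had their highest. A second, dimmer probe set of Irf8 gave a difference of 0.01.

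The sensors of viral nucleic acid followed the same order of arrays. Ddx58 encodes RIG-I and Ifih1 encodes MDA5, which detect foreign RNA in the cytosol, and Zbp1 detects Z-form nucleic acid. Ddx58 had log2 signals of 9.27, 9.33 and 9.63 on the null arrays and 9.42, 8.65 and 8.99 on the wild-type arrays, a difference of 0.39 (SE 0.20, limma adjusted p = 0.548). Zbp1 had a difference of 0.40 (SE 0.39) and Ifih1 one of 0.21 (SE 0.23). All 3 were highest on the third null and the first wild-type array and lowest on the other two wild-type arrays.

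The antiviral effectors did not share a direction. Ifit1 binds viral RNA that lacks the methylated cap of host RNA. Its log2 signals were 7.80, 8.0 and 9.04 on the null arrays and 8.63, 6.43 and 7.11 on the wild-type arrays, with the first wild-type array above 2 of the null arrays. Its difference was 0.89 (SE 0.56, limma adjusted p = 0.618), and it moved to 1.51 with the first wild-type array left out, to 0.51 with the third null array left out and to 0.41 with the second wild-type array left out. Its relatives Ifit2 and Ifit3, which lie in the same gene cluster, differed by 0.06 (SE 0.22) and -0.06 (SE 0.21). Ifit3 has a near-identical copy, so its signal may include that of Ifit3b.

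Members of the OAS family, which make or resemble the enzymes that make the 2′-5′ oligoadenylate signal for RNase L, split. Oas2 measured 6.57, 7.21 and 6.40 on the null arrays and 7.52, 7.59 and 7.08 on the wild-type arrays, with only the second null array inside the wild-type range, and its difference was -0.67 (SE 0.23, limma adjusted p = 0.396). Oasl2, an OAS-like protein, had a positive difference of 0.62 (SE 0.35) and the array order of Isg15 within the wild-type group, at 8.87, 7.55 and 7.94. Oas3 and Oasl1 differed by 0.01 (SE 0.20) and 0.15 (SE 0.15).

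Rsad2 encodes viperin, a radical enzyme that makes a chain-terminating nucleotide. It separated the groups with little spread in either, at 6.23, 6.30 and 6.17 on the null arrays and 6.57, 6.66 and 6.62 on the wild-type arrays. Every null array lay below every wild-type array, as in 5.75% of all genes, and the difference was -0.38 (SE 0.10, limma adjusted p = 0.324). The other direct effectors had positive differences from 0.12 for Eif2ak2, the kinase PKR that stops translation, to 0.34 for Isg20, an exonuclease, and for Bst2, the tether of budding virus. Bst2 had signals of 10.24 ± 0.69 in the null and 9.91 ± 0.42 in the wild-type group (SD, n = 3). Mx1 lay at 2.79 to 3.47, far below the median of all deposited values (5.28), and C57BL/6J mice are known to carry a defective Mx1 gene. Mx2 lay at 4.51 to 5.69, and signals this near the background compress differences.

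The GTPases, which interferon gamma strongly induces, split the wild-type group. Iigp1, which attacks the vacuoles of intracellular parasites, measured 6.91, 6.89 and 8.04 on the null arrays and 8.21, 5.84 and 6.19 on the wild-type arrays. The first wild-type array was the highest of all, 4.58-fold above the mean of the other two, while those lay below every null array. The difference of Iigp1 was 0.53 (SE 0.61), and this ran from 0.08 without the second wild-type array, and 0.15 without the third null array, to 1.26 without the first wild-type array. Igtp, a related GTPase, had 6.69, 6.40 and 7.22 against 6.72, 5.98 and 5.97, a difference of 0.55 (SE 0.27, limma adjusted p = 0.524). Gbp3, a guanylate binding protein, differed by 0.26 (SE 0.33). For these 3 genes the third null and the first wild-type array were again the top pair.

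**Figure D3:**
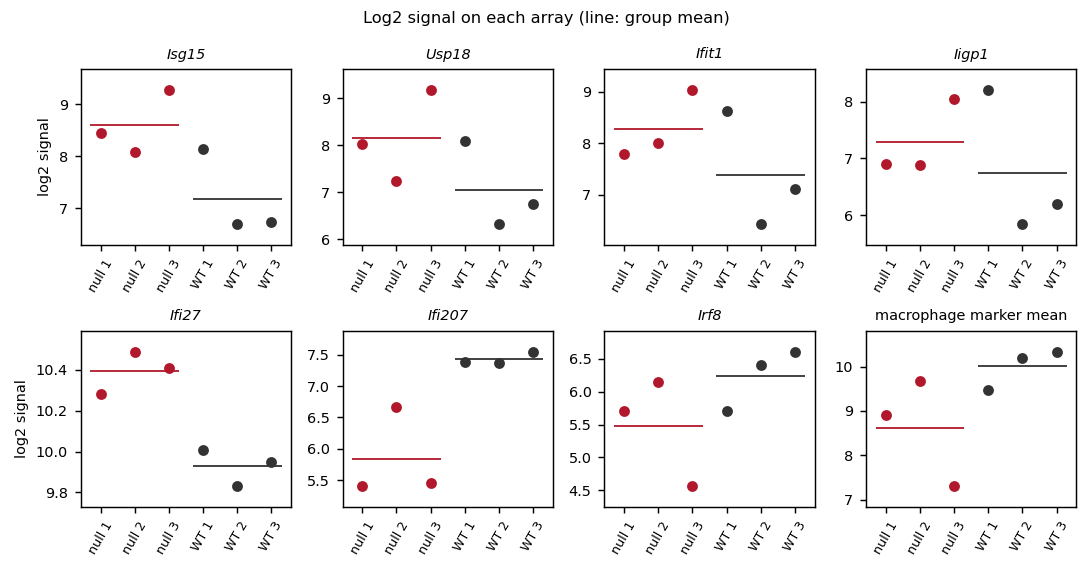
Log2 signal on each array (y axis; x axis lists the arrays) for 7 interferon response genes and for the mean of 20 macrophage markers; lines are group means of 3 arrays. WT 1 stands with the null arrays for Isg15, Usp18, Ifit1 and Iigp1 and with its own group for Ifi27 and Ifi207, and null 3 is lowest for Irf8 and for the macrophage markers.

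Among the other induced genes, Ifi27 and Ifi35 lay higher and Ifi207 lower on every null array than on any wild-type array. Such separations held for 10.1% and 5.75% of all genes, near their shares among the 33 members. Ifi27, a small membrane protein, measured 10.28, 10.49 and 10.41 on the null arrays and 10.01, 9.83 and 9.95 on the wild-type arrays. This gene differed by 0.47 (SE 0.11, 1.38-fold, limma adjusted p = 0.305), and it stayed between 0.42 and 0.52 when any 1 array was left out. Ifi35, a leucine zipper protein, had 8.42, 8.46 and 8.44 against 8.22, 7.90 and 8.10, a difference of 0.37 (SE 0.12, limma adjusted p = 0.379). A second, dimmer probe set of Ifi35 went against it, at -0.26. Ifi207 is a nuclear protein of the Ifi200 family, a cluster of similar genes, so its signal may include that of relatives. Its signals were 5.40, 6.67 and 5.45 on the null arrays and 7.39, 7.37 and 7.55 on the wild-type arrays. All null arrays lay below the tight wild-type group, the second null array nearest to it, and the difference was -1.60 (SE 0.32, 3.03-fold lower, limma adjusted p = 0.25). Since the strain background of the null mice is not given, genotype and strain cannot be told apart in such gene families, for Ifi207 as for Oas2 and Oas1g. Without the second null array Ifi207 was at -2.01 and passed the threshold (limma adjusted p = 0.00953), the only member to do so in any of the fits run. Rtp4 and Xaf1 had differences of 0.33 (SE 0.45) and 0.57 (SE 0.28) with the array order of Isg15 inside the wild-type group, and Rtp4 ran from -0.04 to 0.83 when 1 array was left out, without the second and without the first wild-type array. Parp14, an ADP-ribosyltransferase, had -0.36 (SE 0.17).

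Macrophage markers moved with part of this pattern. The cultures carried clear macrophage signal. The mean of 20 markers was 8.91, 9.67 and 7.30 on the null arrays and 9.48, 10.19 and 10.34 on the wild-type arrays, and within each group the array with the lowest macrophage signal, the third null and the first wild-type, was the one with the highest median level of the interferon genes. All 20 of the 20 markers had lower means in the null group, 14 at an unadjusted p under 0.05, where 4.27% of all genes were lower at that level. Cd68 measured 11.70, 12.16 and 9.66 against 12.46, 12.85 and 12.99, and Cd163, at 4.02 to 4.42, was near background throughout. Mrc1 was lowest on the third null array (8.28) but went the other way in the wild-type group. There it read 11.56, 10.97 and 10.97, highest of all on the first array.

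Of the members, 5 were lowest on the third null array (15.2%), near the 14% of all genes, and 14 members were highest there, against 17.8% of all genes. With the macrophage marker mean as a covariate, 13 of the 33 differences were positive and their median was -0.07. At an unadjusted p under 0.05 this fit kept 1 member with higher signals, Ifi27, against 3.60% of all genes, and 1 with lower signals, Ifi207, against 2.55%. Ifi27 kept its size (0.46, SE 0.17), Ifi207 was at -1.06 (SE 0.34), Isg15 at 0.49 (SE 0.36) and Irf8 at 0.22 (SE 0.17). The marker mean itself differs between the genotypes, so this fit takes out part of any difference that goes with genotype. In RNA from whole cultures, fewer macrophages and less RNA per macrophage cannot be told apart, and the part of the macrophages in the levels of the members was not tested.

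Endothelial markers averaged 5.19, 5.22 and 4.93 on the null arrays and 5.09, 5.75 and 5.46 on the wild-type arrays, and this mean was also lowest in each group on the array with the highest interferon gene levels. In the wild-type group the spread of this mean rested largely on Emcn, at 3.70, 7.76 and 6.15. In the null group Emcn (4.37, 5.13 and 4.28), Pecam1, Cdh5, Kdr, Tie1, Cldn5 and Vwf were each lowest on the third array. Tek went the other way, highest in each group on the third null (7.32) and the first wild-type array (7.74). Fibroblast markers were brightest on the first wild-type (11.08) and the second null array (10.83), of which only the first had high interferon gene levels. Of the 9 fibroblast markers, Col1a1, Col1a2 and Col3a1 had positive differences of 0.54, 0.51 and 1.03, with every null array above every wild-type array. Such a separation held for 10.1% of all genes. The list had 5 positive and 4 negative differences, the latter for Lum (-1.05), Dcn (-0.55), Dpt (-0.4) and Thy1 (-0.15). Lymphocyte markers averaged 4.43 to 4.60 and 8 dendritic cell markers 5.52 to 5.68 on the 6 arrays, close to or below the median of all deposited values (5.28), except Cd209a at 9.73 to 10.33 and Itgax, which was lowest on the third null array at 5.08 and reached 6.68. Siglech, which marks plasmacytoid dendritic cells, the specialised producers of type I interferon, read 4.48 to 5.06. Of the markers of myoepithelium itself, Acta2 was high on every array (13.85 to 14.01). The basal gene Trp63 read 4.47 to 4.93, below the median of all deposited values. Oxtr, the oxytocin receptor, read 5.48 to 6.02. The fibroblast marker Col1a1 was also high on every array (12.56 to 13.53). The name of the cells is that of the series, and the make-up of the cultures was not tested. The basal keratins Krt14 (4.93 to 6.35) and Krt17 (4.71 to 6.10) had differences of 0.89 (SE 0.20) and 0.82 (SE 0.23), with every null array above every wild-type array. The part of these cells in the levels of the members was not tested.

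**Figure D4:**
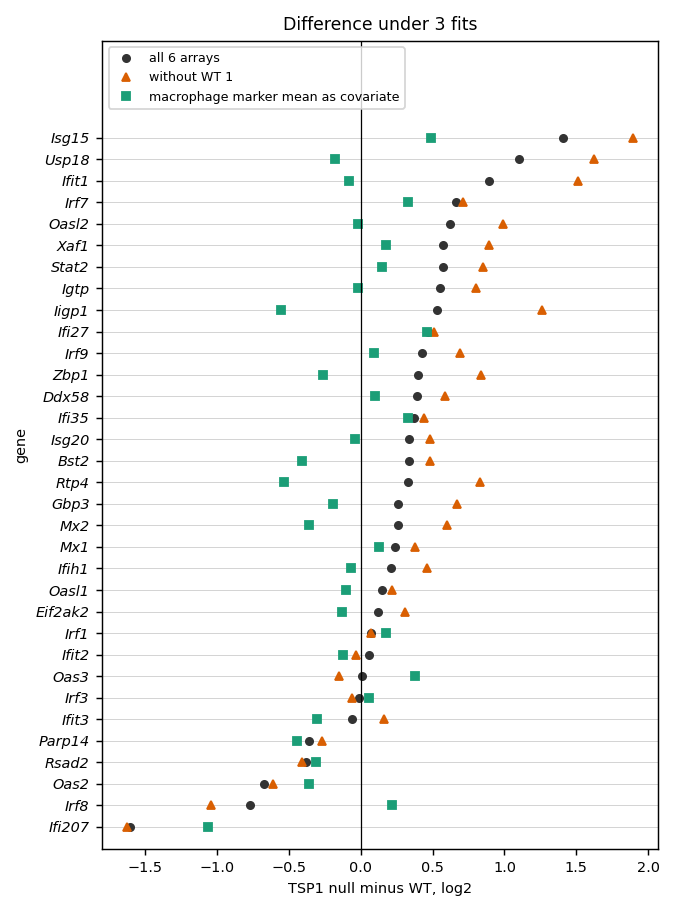
Difference in log2 signal (TSP1 null minus WT, x axis) of each measured interferon response gene (y axis) with all 6 arrays, without the first wild-type array, and with the macrophage marker mean as a covariate. Without WT 1 most positive differences widen, as for Isg15 from 1.41 to 1.89, and with the covariate many move to about 0 or below, as for Usp18 at -0.18.

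The count of members depended on which array was left out. Without the first wild-type array, 19 of the 33 members had higher null signals at an unadjusted p under 0.05, against 6.73% of all genes, and 0 passed over all genes (smallest limma adjusted p = 0.134, for Isg15). Without the second null array, 8 members were higher, against 6.76% of all genes, and 5 lower, against 5.57%. Without both the third null and the first wild-type array, a fit chosen after seeing the values, 16 members were higher, against 4.73% of all genes. The median difference was 0.48 without the first wild-type array, and 0.15, 0.16 and 0.17 without the third null, the second wild-type and the third wild-type array.

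The rest of the pathway was described by 70 measured genes of a list of 77, of which 0 passed over all genes. Their median difference was 0.02, with 36 positive (51.4%, against 55.1% of all genes). At an unadjusted p under 0.05 the null group had 5 with higher and 10 with lower signals, where 6.28% and 4.27% of all genes were. Among the 9 ligand genes, Ifnb1 stayed at 3.44 to 3.69 and Ifng at 3.99 to 4.47, both below the median of all deposited values. Ifna2, Ifne and Ifnk were below it too, while Ifna1 (6.86 to 7.31), Ifnl2 (7.18 to 7.64) and Ifnl3 (6.01 to 6.74) lay above it. Ifna4, one of many similar interferon alpha genes, measured 6.50, 6.95 and 6.35 on the null arrays and 7.01, 7.81 and 7.38 on the wild-type arrays (difference -0.80, SE 0.23), and Ifnl2 differed by -0.22 (SE 0.12). Of the receptor genes, Ifnar1 read 10.55 to 10.72 and Ifnar2 10.60 to 10.81 over the 6 arrays, with differences of -0.01 and -0.07, while Ifnlr1, the specific chain of the interferon lambda receptor, read 4.35 to 4.51. Il10rb, a receptor chain shared by interferon lambda and interleukin 10, had -0.62 (SE 0.17), and Ifngr1, a chain of the interferon gamma receptor, -0.34 (SE 0.14).

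Of 13 sensing and adaptor genes, Tlr7 and Aim2 had the smallest p. Tlr7, an endosomal sensor of single-stranded RNA, measured 6.98, 7.64 and 5.25 on the null arrays and 8.71, 8.53 and 8.68 on the wild-type arrays, a difference of -2.01 (SE 0.53, limma adjusted p = 0.321). Aim2, a DNA sensor of the inflammasome, measured 5.03, 5.66 and 4.57 against 6.07, 6.38 and 6.91, a difference of -1.36 (SE 0.30, limma adjusted p = 0.29). Both were lowest on the third null array, as was the macrophage marker mean and as were 14% of all genes. Within the wild-type group that mean was lowest on the first array, where Aim2 was also lowest but Tlr7 highest. The part of the macrophages in these levels was not tested. Among 8 negative regulators, Adar, the RNA editing enzyme that keeps host RNA from being sensed, had a difference of 0.37 (SE 0.11), and Socs3, a feedback inhibitor of JAK kinases, one of 0.60 (SE 0.18). In both genes every null array lay above every wild-type array, as in 6 of the 70 pathway genes and 10.1% of all genes. Every null array lay below in 9 of the 70, against 5.75% of all genes. Of 30 further induced genes, Oas1g had -0.68 (SE 0.13, limma adjusted p = 0.25) and Helz2, a helicase, 0.50 (SE 0.12). Oas1g is a near copy of other Oas1 genes, so its probe set may read them too.

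The targeted gene, Thbs1, read 12.73, 13.03 and 13.00 on the null arrays and 13.51, 13.75 and 13.54 in wild type, a difference of -0.68 (SE 0.13). It is a weak check of the labels, since the null signal stayed bright and no source used here says whether its probes lie inside the deleted stretch. Array medians lay between 5.25 and 5.32, and correlations between arrays between 0.978 and 0.988. Arrays have no sequencing depth, and their number limits the precision.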

How the data were processed

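Total RNA of the 6 samples was labelled with biotin (150 ng) and hybridised to 1-colour arrays, per the labels' protocols. Each array has 41345 log2 values, which the authors deposited after Partek and RMA, per the submitters' processing notes. The sources used here give no version, setting or build. RMA signals have a background floor, which compresses differences of dim genes. In the platform annotation 23521 probe sets had 1 symbol, 1814 had several and 16010 had none. Of those with 1 symbol, 23328 matched the reference table (GRCm38.p6) by Entrez identifier. Groups and replicate numbers came from the titles.

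The 22180 genes were fitted with limma 3.58.1 (lmFit, eBayes, two-sided, no covariate, no intensity filter) in R 4.3.3. The p-values were Benjamini-Hochberg adjusted across all of them, and the threshold was 0.05. Figures used Python 3.11.15 and matplotlib 3.10.9. The procedure was tested on simulated data. The members and all lists were chosen with earlier results of these data known, so no list was tested. Described with every array's value were members at an unadjusted p under 0.05 and the member of smallest p in each role group. Usp18, Iigp1, Irf8, Stat2, Zbp1, Oasl2 and other members were added after their values were seen. So were the pathway genes Ifnar1, Ifnar2, Ifnlr1 and all ligand genes except Ifna4 and Ifnl2. Up to 2 genes of smallest p were named per pathway list. Alternatives were quantile normalization, median centring, leaving out dim genes, averaging probe sets, the replicate number as a block, another variance prior, array weights, the macrophage covariate, and leaving out arrays.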

Additional observations from a re-analysis of the deposited data

How the results depend on the processing

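Over 15 alternatives to the limma fit, the 10 members described by rule had 150 values, of which 2 changed sign. With 0 genes past the threshold in the fit of all arrays, staying under it says little. Ifit1 and Igtp changed sign with the macrophage marker mean as a covariate, to -0.08 and -0.02. Ddx58 was 0.10 in that fit, Ifi35 was 0.05 with probe sets averaged, and Ifi207 passed without the second null array. When 1 array was left out, genes passing the threshold ran from 0 to 34 and members passing from 0 to 1. In the same fits members at an unadjusted p under 0.05 ran from 3 to 19 on the higher and from 2 to 5 on the lower side, and their median difference from 0.15 to 0.48. The upper count of genes and of members passing came without the second null array. Array weights gave 13 higher and 5 lower members (8.11% and 6.36% of all genes), the macrophage covariate 1 and 1 with a median of -0.07, and the fit without the third null and the first wild-type array, added after seeing the data, 16 higher. The cause of these shifts was not tested. Between same-numbered arrays the correlations of deviations were -0.144, 0.184 and -0.162. With 3 arrays per group these cannot settle whether the replicate numbers pair the samples. With the replicate block 6 members were higher (5.46% of all genes), 3 lower (4.52%) and 0 passed, and the median was 0.33. Leaving out dim genes removed 2 members, Mx1 and Mx2. With 3 arrays per group and signals near background for such genes, small differences could not be resolved.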
